A study of Mus musculus with 8 samples.

Results

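Expression of 9 genes of clotting and clot removal was followed by RNAseq in primary mouse peritoneal mesothelial cells (MCs): Serpine2, Plat, Plau, Plaur, F3, Thbd, Tfpi, Tfpi2 and Procr. They were chosen by name as genes that link the mesothelial surface to fibrin, and all 9 were found among the 13687 genes measured and were tested. The cells came from the peritoneum of 4 mice, 2 WT and 2 littermates homozygous for the targeted caveolin-1 allele CAV1tm1mls on a B6 background (CAV1-/-), whose ages are not given in the sources used here. Cells were grown to confluence, and 1 culture of each animal was stretched for 24 h while another stayed static. This gave 8 libraries in 4 groups of 2 cultures: WT static, WT stretched, CAV1-/- static and CAV1-/- stretched. The study's text states more samples per condition for this experiment, and only these libraries were analysed here. The cultures of a group are numbered 1 and 2. Number 1 marks the same animal in the static and the stretched group of a genotype, but different animals in WT and CAV1-/-.

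Clotting outside vessels starts when tissue factor, encoded by F3, binds factor VII and activates factor X, which leads to thrombin and fibrin. Tissue factor pathway inhibitor, encoded by Tfpi, blocks that complex, and its relative encoded by Tfpi2 is a secreted inhibitor of plasmin and other serine proteases that binds the extracellular matrix. Thrombomodulin (Thbd) captures thrombin and turns it towards protein C, which the endothelial protein C receptor (Procr) presents for activation. Fibrin is removed by plasmin, which tissue-type and urokinase-type plasminogen activator (Plat and Plau) release from plasminogen. The urokinase receptor (Plaur) holds urokinase at the cell surface, and protease nexin-1 (Serpine2) inhibits thrombin, urokinase and tissue-type activator. The mesothelium carries both arms of this balance, and fibrin that is not cleared from the peritoneal surface is known as a scaffold of adhesions. Not every gene of the system is reported here.

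The promoters of F3, Plaur and Tfpi2 are shown because these 3 genes, the initiator of clotting, the receptor of urokinase and the gene with the widest difference between stretched and static cultures, share a short AP-1-type motif. Each line gives the 250 bases before the transcription start, 5′ to 3′ on the strand of the gene, from RefSeq on build GRCm38.p6. Capitals mark TGANTCA, a loose form of the AP-1 motif with any base (N) in the middle, which reads the same on both strands. They also mark GGGCGG, the GC box, on either strand (CCGCCC on the other).
F3, chr3:121723287-121723536, plus strand: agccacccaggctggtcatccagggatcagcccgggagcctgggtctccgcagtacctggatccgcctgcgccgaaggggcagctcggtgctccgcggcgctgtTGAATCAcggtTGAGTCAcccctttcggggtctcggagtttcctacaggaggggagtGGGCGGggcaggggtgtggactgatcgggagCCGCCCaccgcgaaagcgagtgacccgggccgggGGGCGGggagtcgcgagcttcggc
Plaur, chr7:24462233-24462482, plus strand: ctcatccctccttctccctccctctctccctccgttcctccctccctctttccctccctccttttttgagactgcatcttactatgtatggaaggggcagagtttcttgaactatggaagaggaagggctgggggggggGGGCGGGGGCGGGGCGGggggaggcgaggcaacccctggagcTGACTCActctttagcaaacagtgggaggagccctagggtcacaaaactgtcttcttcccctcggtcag
Tfpi2, chr6:3968376-3968625, minus strand: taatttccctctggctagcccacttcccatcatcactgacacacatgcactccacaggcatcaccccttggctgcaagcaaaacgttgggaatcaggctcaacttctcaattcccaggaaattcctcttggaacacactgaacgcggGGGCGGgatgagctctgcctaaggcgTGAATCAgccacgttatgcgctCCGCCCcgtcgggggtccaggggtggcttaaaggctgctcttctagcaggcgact
In F3 the TGANTCA motif stood at -146 to -140 and at -135 to -129 relative to the start. Plaur carried it at -69 to -63, and Tfpi2 at -77 to -71. The middle base differed: the letters were TGAATCA and TGAGTCA in F3, TGACTCA in Plaur and TGAATCA in Tfpi2. A window of this kind was at hand for 6 of the 9 genes (Serpine2, Plaur, F3, Tfpi, Tfpi2 and Procr), and 1 per gene was used, at the start nearest to the principal start in GENCODE. TGANTCA was present in 4 of these 6 (Plaur, F3, Tfpi2 and Procr) and in 6.87% of the windows of 27025 mouse genes. For that share the first listed window of each gene was taken, a choice unlike that for the members. Over all 32851 listed windows the share was 6.75%. GGGCGG was present in 5 of the 6, against 32.9% of the first listed windows. The letters TATAAA (13% of the first listed windows) and GGAATG, a TEAD-type motif (12.6%), were found in 0 of the 6 on either strand. Tfpi2 has further annotated starts upstream of the one shown, and the windows there held none of these letters. The first listed window of Tfpi2 is among them, so under the choice made for all genes Tfpi2 would carry neither TGANTCA nor GGGCGG. A further window of Tfpi, at an upstream start and the first listed for this gene, held TATAAA on the other strand at -127 to -122. These matches describe the sequence, and binding of a factor was not measured.

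The 9 genes lie on 7 chromosomes of GRCm38 (GENCODE M21), and no annotated gene overlaps any of them. Tfpi2 lies at chr6:3962595-3988919 on the minus strand, F3 at chr3:121723537-121735048 on the plus strand and Plaur at chr7:24462484-24475968 on the plus strand. Thbd, at chr2:148404466-148408188 on the minus strand, is made of 1 exon, so its reads cannot be told from genomic DNA by splicing.

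The reads recovered for the 13687 genes numbered 9777738 to 21203938 per library, and in each of the 4 animals the stretched library was the deeper one. Reads outside these genes are not counted. Values are TMM-normalized CPM (reads of a gene scaled by library size), a scale on which library sizes are made comparable. The least abundant member still had 71 reads in its lowest library (Tfpi2, WT static 1), and a floor of 3 reads corresponds to 0.146 to 0.308 CPM. This floor allows for counting error alone, not for the spread between cultures. The targeted gene Cav1 lay between 247 and 764 CPM in WT and between 12.8 and 34.5 CPM in CAV1-/- cultures. Of 12 mesothelial markers 11 were measured, with summed levels of 3071 to 3996 CPM in WT and 923 to 1169 CPM in CAV1-/- cultures. Of the 11, 9 were lower in every CAV1-/- culture than in every WT culture, while Wt1 and Krt19 overlapped. The share of all genes in that order is not given here, so the count is a description only. The surface protein gene Upk3b, for example, was at 202 to 545 CPM in WT and at 3.15 to 111 CPM in CAV1-/- cultures. Of 12 leukocyte markers 10 were measured, and all 10 were highest in the cultures of CAV1-/- animal 1, where they summed to 4706 CPM static and 4732 CPM stretched. Their sum was 296 and 329 CPM in CAV1-/- animal 2 and 72.7 to 454 CPM in WT. The 10 fibroblast markers, mostly Col1a1 and Col1a2, summed to 10940 to 12133 CPM in the cultures numbered 1 and to 17913 to 26222 CPM in those numbered 2. Of 12 endothelial markers 6 were measured, with sums of 47.5 to 117 CPM, and the junction gene Cdh5 was at 0.247 to 1.65 CPM. Smooth muscle and pericyte markers (6 of 8 measured) summed to 412 to 1282 CPM. In bulk RNA, fewer cells of a type and less RNA per cell cannot be told apart.

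**Figure D1:**
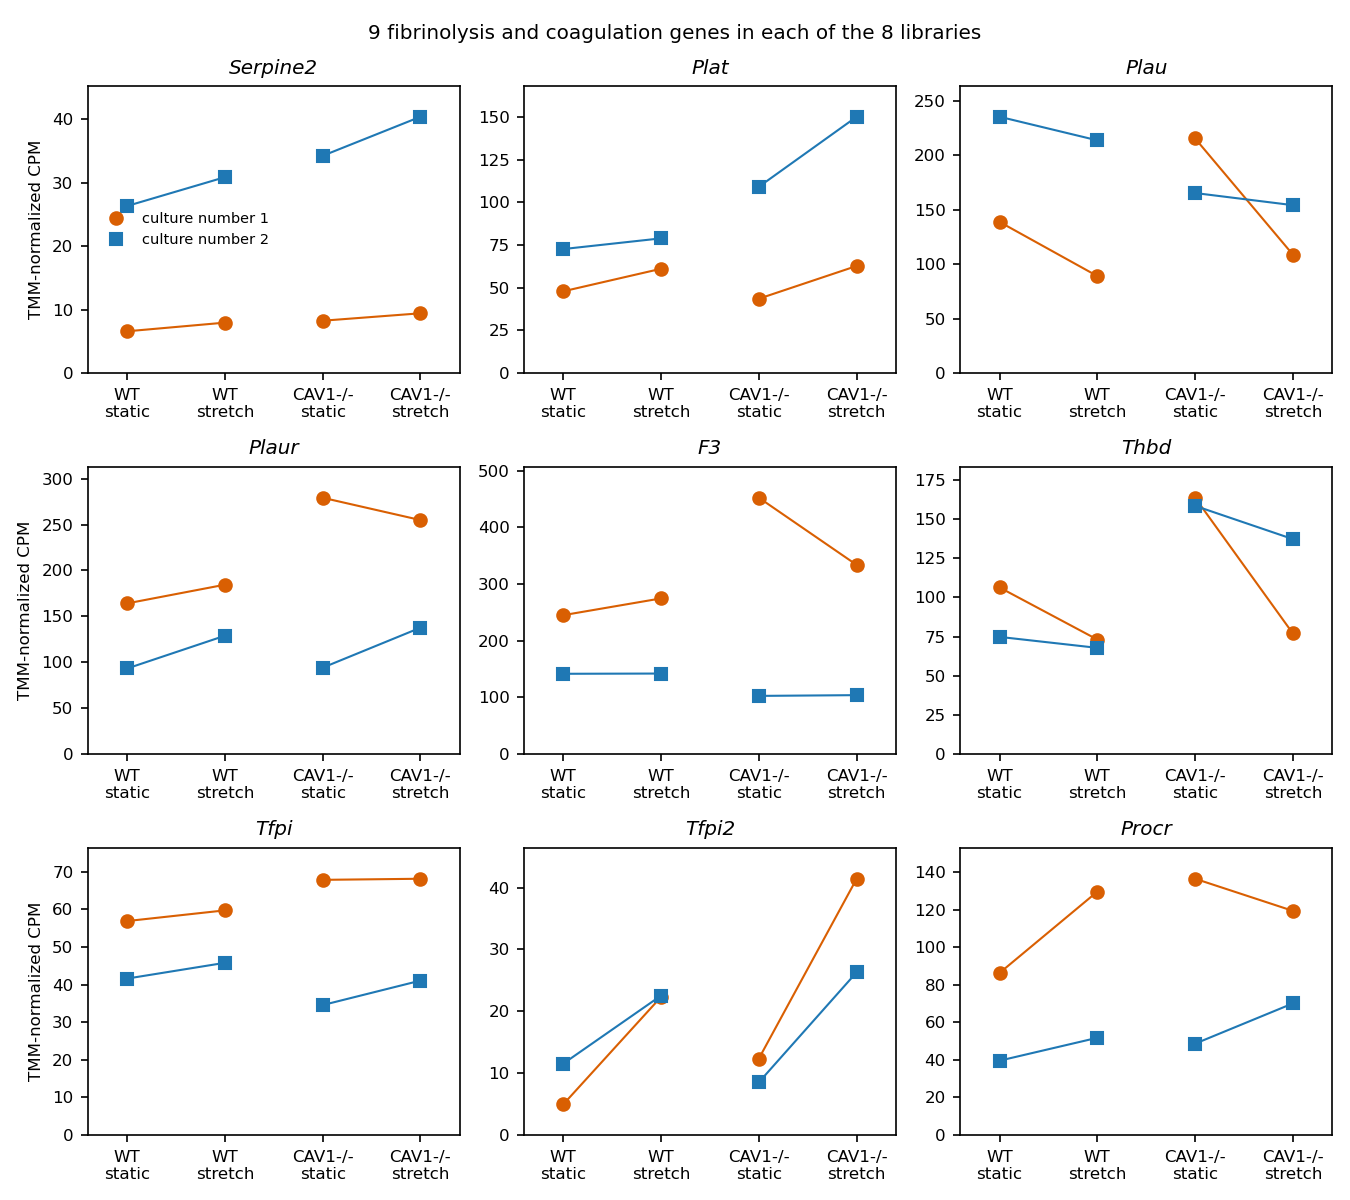
Level of each of the 9 genes in every library, as TMM-normalized CPM on linear axes from 0, with 1 panel per gene and the groups along the horizontal axis. Points are single cultures, circles for number 1 and squares for number 2, and a line joins the static and the stretched culture of 1 animal. In the Tfpi2 panel all 4 lines go up, from 4.97 to 12.4 CPM static to 22.3 to 41.4 CPM stretched, and in the Serpine2 panel the 2 numbers never meet.

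Per kilobase of exon, tissue factor had the highest median of the 9 genes, though not in every culture. The length used was that of all annotated exons of a gene joined, not that of the transcript present. It was 8.287 kb for Serpine2 and 2.527 kb for F3, so the order of the genes depends on the annotation. Without division by length, the median of Serpine2 was 17.9 CPM and that of Tfpi2 17.3 CPM. The median level of F3 over the 8 libraries was 76.6 CPM per kb (range 40.6 to 179), followed by Plau with 67.5 (37.6 to 99.4) and Plaur with 57.7 (35.6 to 107). F3 was above Plau in the cultures numbered 1 (97.0 to 179 against 37.6 to 91.0 CPM per kb) and below it in those numbered 2 (40.6 to 56.2 against 65.1 to 99.4). The protein C receptor Procr had a median of 38.5 CPM per kb (19.5 to 67.2) and thrombomodulin of 24.6 (18.2 to 43.9). Plat (10.8), Tfpi2 (9.93) and Tfpi (9.39) followed, and Serpine2 was lowest with 2.16 CPM per kb (0.793 to 4.87). The ranges of neighbours in this order overlapped, with the exception of the last step, from Tfpi, at or above 6.32 CPM per kb in every library, to Serpine2, at or below 4.87. On the same scale Tfpi2 was at 4.73 ± 2.66 CPM per kb in static WT and at 19.4 ± 6.12 in stretched CAV1-/- cultures (SD, n = 2 each), where Plat was at 9.65 ± 2.80 and 17.0 ± 9.90, and the errors of the 2 genes overlapped in both groups.

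The first comparison asked which of these genes stretch moves. Tfpi2 stood apart. Its level was 4.97 and 11.5 CPM in the WT static cultures and 22.3 and 22.5 CPM in the WT stretched cultures. In CAV1-/- MCs it was 12.4 and 8.53 CPM static and 41.4 and 26.3 CPM stretched. All 4 stretched cultures thus lay above all 4 static ones, which was so for no other member and for 1.46% of the 13665 genes tested. The means were 8.26 ± 4.65 and 22.4 ± 0.148 CPM in WT and 10.4 ± 2.71 and 33.9 ± 10.7 CPM in CAV1-/- (SD, n = 2 each). Within an animal, the stretched culture held 4.50 and 1.95 times the Tfpi2 of the static one in WT, and 3.35 and 3.08 times in CAV1-/-.

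The log2 difference of Tfpi2 on stretch, on log2(CPM + 1), was 1.44 (SE 0.40) in WT and 1.59 (SE 0.40) in CAV1-/-, and 1.52 (SE 0.29, 95% interval 0.82 to 2.21) averaged over both genotypes. In the fit by limma with 1 mean per group, its adjusted p was 0.984 for the average and 1.00 within each genotype, and 0 genes passed in any of these 3 comparisons by limma (background 0% in WT, 0% in CAV1-/- and 0% for the average). At an unadjusted p under 0.05 in this fit, Tfpi2 was the only member in all 3 comparisons, against 2.27% of all genes in WT, 2.09% in CAV1-/- and 4.73% for the average. Since the static and stretched cultures came from the same animals, the average was also fitted by limma with the animal as a block. There the adjusted p of Tfpi2 was 0.0291, and it was the only member among 201 genes that passed (1.47%). At an unadjusted p under 0.05 the blocked fit held 6 members for the average (Tfpi2, Plat, Thbd, Plau, Procr and Serpine2), beside 2872 of the 13665 genes. It held 3 members beside 1979 genes in WT and 4 beside 1824 in CAV1-/-. DESeq2 on the recovered reads gave an adjusted p of 0.00534 for Tfpi2, again the only member among the 34 genes it called (0.249%), whereas edgeR's quasi-likelihood test gave an adjusted p of 0.993 and called 0 genes, with 656 at an unadjusted p under 0.05. Leaving out 1 animal, the blocked limma fit gave an adjusted p of 0.145 without CAV1-/- animal 1, 0.124 without CAV1-/- animal 2, 0.0118 without WT animal 1 and 0.00113 without WT animal 2. The difference stayed positive in all 21 alternative settings, between 1.21 and 1.78.

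Sums of leukocyte markers differed little between the static and stretched cultures of an animal (435 and 454, 72.7 and 77.7, 4706 and 4732, 296 and 329 CPM). In CAV1-/- animal 1, however, most of the sum was Lyz2, at 3647 CPM static and 3920 CPM stretched. All other leukocyte markers were lower in the stretched culture of that animal, for example Itgam (314 and 205 CPM) and Cd68 (188 and 150 CPM). The mesothelial sums were lower in the stretched culture of each animal, by the widest step in WT animal 1 (3996 and 3071 CPM). Their markers did not move together. Msln, Krt7, Upk3b, Lrrn4 and Bnc1 were lower in the stretched culture of each animal. Pdpn was higher in each (580 and 779 CPM in WT animal 1), and the other markers were mixed. The part of depth and of these cell types in the Tfpi2 difference was not tested.

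Thrombomodulin went the other way in every animal. Thbd was at 106 and 74.8 CPM in WT static and 73.1 and 67.8 CPM in WT stretched cultures. In CAV1-/- it was at 164 and 158 CPM static and at 76.9 and 137 CPM stretched. The ratio of stretched to static was 0.687 and 0.906 in WT animals and 0.470 and 0.866 in CAV1-/- animals, so that the larger differences were those of the animals numbered 1. The averaged log2 difference was -0.49 (SE 0.21) and did not pass in limma (adjusted p = 0.984, with the animal as a block 0.138).

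Urokinase showed a like pattern. Plau was at 139 and 235 CPM in WT static, 89.1 and 214 CPM in WT stretched, 215 and 165 CPM in CAV1-/- static and 109 and 154 CPM in CAV1-/- stretched cultures. Its log2 difference within the animals numbered 1 was -0.63 in WT and -0.98 in CAV1-/-, and within those numbered 2 it was -0.14 and -0.10. The average of -0.46 (SE 0.33) did not pass in limma (adjusted p = 0.991). Plau and Thbd were the 2 members lower in the stretched culture of all 4 animals, against 16.9% of all genes.

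Tissue-type activator, the other plasminogen activator, was higher in each stretched culture than in the static culture of the same animal. Plat was at 47.8 and 72.6 CPM in WT static and 61.0 and 78.9 CPM in WT stretched, and at 43.5 and 109 CPM in CAV1-/- static and 62.7 and 150 CPM in CAV1-/- stretched cultures. The log2 differences were 0.35 and 0.12 in WT and 0.52 and 0.46 in CAV1-/- animals. Their mean of 0.36 did not pass in limma without or with the animal as a block (adjusted p = 0.999 and 0.0630). The 2 plasminogen activators thus differed in sign on stretch in all 4 animals, a difference between genes that was not tested.

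Protease nexin-1 moved by nearly the same amount in every animal. Serpine2 was at 6.58 and 26.3 CPM in WT static and 7.94 and 30.9 CPM in WT stretched, and at 8.24 and 34.2 CPM in CAV1-/- static and 9.41 and 40.4 CPM in CAV1-/- stretched cultures. The log2 differences within animals lay between 0.17 and 0.24, a narrow range beside the spread between animals of 1 group, and the average had an adjusted p of 0.999 by limma and 0.221 with the animal as a block. Tfpi was at 56.9 and 41.6 CPM in WT static, 59.7 and 45.8 CPM in WT stretched, 67.8 and 34.5 CPM in CAV1-/- static and 68.1 and 41.0 CPM in CAV1-/- stretched cultures. It was higher on stretch in all 4 animals by 0.006 to 0.24 on the log2 scale. Serpine2, Plat, Tfpi and Tfpi2 were the 4 members higher in the stretched culture of all 4 animals, against 14.5% of all genes.

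The remaining 3 members had no single direction. F3 was at 245 and 142 CPM in WT static, 275 and 142 CPM in WT stretched, 452 and 103 CPM in CAV1-/- static and 334 and 104 CPM in CAV1-/- stretched cultures. Its log2 difference on stretch was -0.44 in CAV1-/- animal 1 and 0.16 in WT animal 1, and 0.02 or less in both animals numbered 2. Plaur was at 164 and 93.2 CPM in WT static, 184 and 129 CPM in WT stretched, 279 and 94.1 CPM in CAV1-/- static and 255 and 138 CPM in CAV1-/- stretched cultures. Procr was at 86.3 and 39.6 CPM in WT static, 130 and 51.7 CPM in WT stretched, 136 and 48.6 CPM in CAV1-/- static and 119 and 70.0 CPM in CAV1-/- stretched cultures. Both were higher on stretch in 3 animals and lower in CAV1-/- animal 1, by -0.13 for Plaur and -0.19 for Procr. Over the 9 members the median averaged log2 difference was 0.22, with 6 higher and 3 lower, beside -0.01 over all genes.

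**Figure D2:**
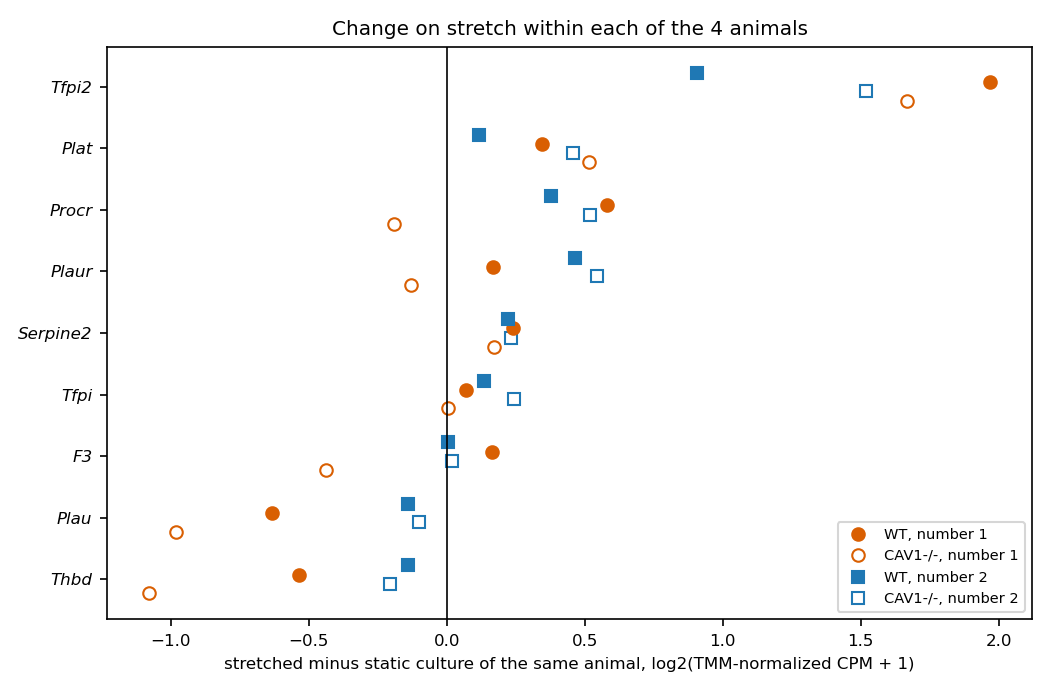
Difference between the stretched and the static culture of the same animal for each gene, on log2(TMM-normalized CPM + 1). Each point is 1 animal, with filled symbols for WT, open symbols for CAV1-/-, circles for number 1 and squares for number 2. Tfpi2 lies to the right of 0 in all 4 animals and Thbd and Plau to the left, with the circles of Thbd and Plau farther from 0 than the squares.

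The second comparison asked which members depend on Cav1. Thrombomodulin had the clearest genotype difference in static cultures. Both CAV1-/- static cultures (164 and 158 CPM, 161 ± 3.66, SD, n = 2) lay above both WT static cultures (106 and 74.8 CPM, 90.5 ± 22.3, SD, n = 2). The log2 difference was 0.85 (SE 0.29, 95% interval 0.13 to 1.56). Its adjusted p was 0.504 by limma, 0.556 by edgeR and 0.225 by DESeq2, so the gene was not called by any of these. In the limma fit without a block, Thbd was the only member at an unadjusted p under 0.05, against 8.17% of all genes. It was also the only one with both CAV1-/- cultures above both WT cultures, against 16.1%. With the culture number as a block, which joins different animals, limma held 3 members under 0.05 unadjusted (Thbd, Serpine2 and Procr), beside 2300 of the 13665 genes. Of all genes, 0.0732% passed at an adjusted p under 0.05, and 0 members did.

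In stretched cultures, the CAV1-/- levels of Thbd (76.9 and 137 CPM) were again above those of WT (73.1 and 67.8 CPM), but culture 1 was close to WT. The log2 difference was 0.54 (SE 0.29, limma adjusted p = 0.912). CAV1-/- animal 2 differed from the WT mean of Thbd by 0.82 static and 0.95 stretched on the log2 scale, and CAV1-/- animal 1, with the high leukocyte marker sums, by 0.87 and 0.13. The sums of CAV1-/- animal 2 (296 and 329 CPM) lay within the WT range, but above those of WT animal 2 (72.7 and 77.7 CPM). Of the 10 leukocyte markers, 3 were higher in all 4 CAV1-/- cultures than in every WT culture (3.86% of all genes). Mesothelial marker sums were lower in all 4 CAV1-/- cultures, and the part of mesothelial and leukocyte RNA in the Thbd difference was not tested. Tfpi2 was the other member with both CAV1-/- stretched cultures (41.4 and 26.3 CPM) above both WT stretched cultures (22.3 and 22.5 CPM). It differed by 0.54 on the log2 scale (SE 0.40, limma adjusted p = 0.961). These 2 members stand against 14.6% of all genes with that order. In stretched cultures, 0 members were past an unadjusted p of 0.05 by limma without a block (6.26% of all genes) or called (0.0585%). With the number as a block 1 member, Serpine2, was past it, beside 1866 genes. In all, 0 members had all 4 CAV1-/- cultures above all 4 WT cultures (3.86% of all genes).

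For the other members, the 2 CAV1-/- animals lay on opposite sides of the WT mean, so that the group difference was small beside its error. That mean joins a WT culture of each number. For F3, Plaur, Procr, Tfpi, Serpine2 and Plat the WT cultures were split by number in the same direction, so opposite sides need not be opposite genotype differences. F3 differed from the WT mean by 1.27 static and 0.75 stretched in CAV1-/- animal 1 and by -0.85 and -0.92 in animal 2, on the log2 scale. Plaur differed by 1.17 and 0.72 in animal 1 and by -0.39 and -0.16 in animal 2, and Procr by 1.21 and 0.54 against -0.26 and -0.22. Tfpi had the same order, with 0.47 and 0.38 in animal 1 and -0.48 and -0.34 in animal 2. Serpine2 and Plat were reversed. Serpine2 differed by -0.64 and -0.70 in CAV1-/- animal 1 and by 1.29 in both cultures of animal 2, and Plat by -0.43 and -0.14 against 0.88 and 1.10. Plau had no common order, with 0.25 and -0.34 in animal 1 and -0.13 and 0.16 in animal 2. Beside the WT culture of the same number and condition, every CAV1-/- culture was higher for Serpine2 and Plaur. For Plaur the static cultures numbered 2 were nearly equal (94.1 against 93.2 CPM). Procr was higher except in stretched cultures numbered 1, and Plat except in static ones numbered 1. F3 and Tfpi were higher in animal 1 and lower in animal 2. The share of all genes in these orders is not given here, so they are a description only. The number joins different animals, and with it as a block 0 members passed by limma in either condition. The highest levels of F3, Plaur, Procr and Tfpi were all in cultures of CAV1-/- animal 1, where the leukocyte marker sum was also highest, and the part of leukocyte RNA in them was not tested.

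**Figure D3:**
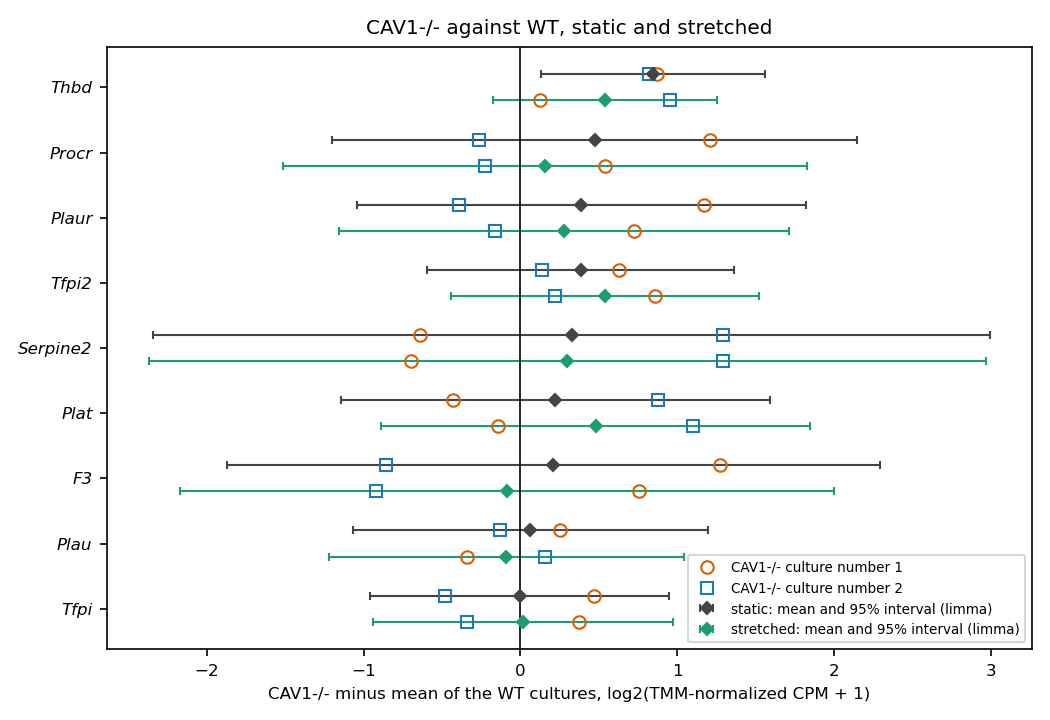
Difference between CAV1-/- and the mean of the 2 WT cultures for each gene, on log2(TMM-normalized CPM + 1), without and with stretch. Diamonds with bars are the group difference with its 95% interval from limma, and open circles and squares are CAV1-/- cultures number 1 and 2. Only the static interval of Thbd, 0.13 to 1.56, leaves out 0, and for F3, Plaur, Procr, Tfpi, Serpine2 and Plat the circle and the square lie on opposite sides of 0.

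The third comparison asked if stretch acts differently on CAV1-/- MCs. The stretch difference in CAV1-/- minus that in WT lay between -0.32 (Procr) and 0.26 (Plat) for the 9 members on the log2 scale, with a median of -0.11 beside 0.01 over all genes. For Tfpi2 it was 0.16 (SE 0.57, 95% interval -1.23 to 1.54) and for Thbd -0.30 (SE 0.41, 95% interval -1.31 to 0.70). A difference of either sign within these intervals could not be told from 0 in this fit, which leaves out that cultures share an animal. With the animal as a block in limma, the SE was 0.35 for Tfpi2 and 0.29 for Thbd. In that fit too 0 members were past an unadjusted p of 0.05, and the lowest adjusted p of a member was 0.947. Without the block, all 9 adjusted p-values were 1.00 by limma, 0 members were past an unadjusted p of 0.05 (0.483% of all genes), and 0 genes were called (0%).

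Most of the spread of these genes followed the number of the culture rather than its group. All 4 cultures numbered 1 lay above all 4 numbered 2 for Plaur, F3, Tfpi and Procr, 4 of 9 members against 9.61% of all genes. The reverse order held for Serpine2 and Plat, 2 of 9 against 9.8%. The mean of Serpine2 was 8.04 CPM over the cultures numbered 1 and 33.0 CPM over those numbered 2, a ratio of 4.10, and that of Plat differed by a ratio of 1.91. In the other direction the ratio was 2.66 for F3 (means 326 and 123 CPM), 2.25 for Procr, 1.95 for Plaur and 1.55 for Tfpi. On log2(CPM + 1), the number took 96.0% of the sum of squares of Serpine2, 85.5% of Tfpi, 85.4% of F3, 81.9% of Procr, 73.0% of Plaur and 63.9% of Plat, beside a median of 24.7% over all genes. Tfpi2 and Thbd were the exceptions, with 0.0029% and 0.185%. Stretch took 77.5% of the sum of squares of Tfpi2, and genotype took 49.0% of that of Thbd, where medians over all genes were 7.18% and 14.1%. The sum of squares of Plau was spread over number (33.2%), the combination of genotype and number (26.1%), stretch (25.1%) and the combination of stretch and number (13.8%).

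The labels do not say what the numbers stand for across genotypes. Of the 10 fibroblast markers, 8 were lower in every culture numbered 1 than in every culture numbered 2, as Serpine2 and Plat were. Of the 10 leukocyte markers, 5 were higher in every culture numbered 1, as Plaur, F3, Tfpi and Procr were. The smooth muscle and pericyte markers were mixed: 3 of the 6 were higher in every culture numbered 1. But 1 of them, Pdgfrb, was lower in every such culture (37.2 to 123 CPM against 150 to 261 CPM in those numbered 2). Their sums were 665 to 1282 CPM in the cultures numbered 1 and 412 to 610 CPM in those numbered 2. The part of these cell types in the difference between numbers was not tested, and with 1 animal per genotype and number, animal, preparation and cell composition cannot be told apart.

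**Figure D4:**
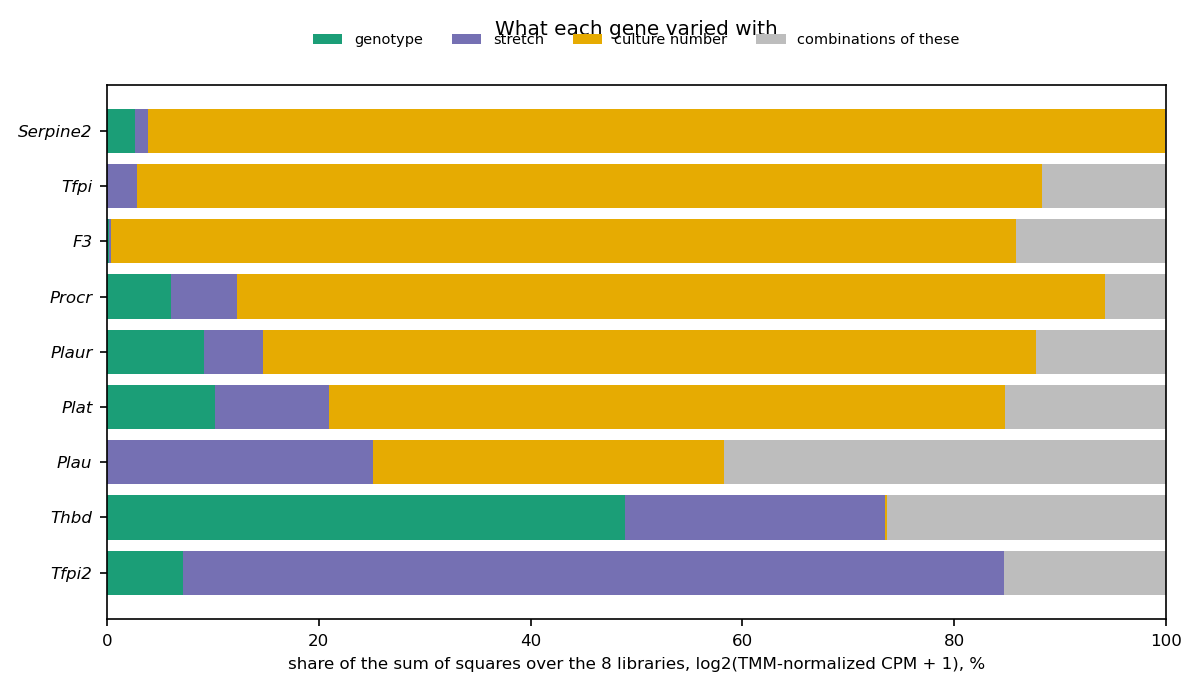
Share of the sum of squares of log2(TMM-normalized CPM + 1) over the 8 libraries, in percent from 0 to 100, that went with genotype, stretch, culture number and their combinations, 1 stacked bar per gene. The number of the culture fills most of the bar for Serpine2 (96.0%), Tfpi, F3, Procr, Plaur and Plat, stretch fills most of that of Tfpi2 (77.5%), and genotype takes the largest part of that of Thbd (49.0%).

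Across the 8 libraries, the members fell in with genes of like pattern, given here as a description by Pearson's r of log2(CPM + 1), with the libraries, animals and depths shared. Tfpi2 was most like Prkg2 (r = 0.98), a cGMP-dependent protein kinase, and Sphk1 (0.96), a sphingosine kinase. Thbd was most like Mrps28 (0.98) and Sprr2g (0.97), and Plau most like Tubb5 and Sox13 (0.97 each). For members that followed the culture number, many genes were as close: 321 genes had an r over 0.9 with F3 and 321 with Serpine2, against 35 with Tfpi2 and 28 with Thbd. Nearest were Napa and Tmbim4 to F3, Pcdhb19 and Igsf10 to Serpine2, Mmp2 and Set to Plat, Msn and Tmed5 to Plaur, Asb6 and Acta1 to Tfpi, and Ppfia3 and Slc30a9 to Procr, with r between 0.978 and 0.999.

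The wider system was read from a list of 43 other coagulation and fibrinolysis genes, of which 22 were measured and tested: 8 of 19 coagulation factors and surface proteins, 3 of 8 anticoagulants, 8 of 12 genes of the plasminogen system and 3 of 4 thrombin and related receptors. In each of the 6 comparisons 0 of the 22 passed by limma or edgeR at an adjusted p under 0.05 in either direction, while DESeq2 called Serpinb2 and F10 higher in CAV1-/-. On stretch, 0 of the 22 were past an unadjusted p of 0.05 in WT, in CAV1-/- or on average, and the median averaged log2 difference of the list was -0.03, beside -0.01 over all genes. In CAV1-/- against WT, 2 of the 22 were higher at an unadjusted p under 0.05 static and 2 stretched, in both cases Serpinb2 and Pros1, and 0 were lower. Of all genes, 2.76% were higher at that threshold static and 2.44% stretched, and DESeq2 called 2.26% and 1.73% in either direction.

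Serpinb2 encodes a serpin that inhibits urokinase and is made by macrophages among other cells. It was at 8.46 and 18.0 CPM in WT static and 11.1 and 29.6 CPM in WT stretched, and at 184 and 198 CPM in CAV1-/- static and 54.5 and 290 CPM in CAV1-/- stretched cultures, with no overlap of the genotypes. The log2 difference was 3.84 (SE 0.84) static and 2.72 (SE 0.84) stretched, with adjusted p-values of 0.218 and 0.562 by limma, 0.325 and 0.529 by edgeR and 8.17e-05 and 0.00578 by DESeq2. CAV1-/- animal 2 held the highest level of each condition. Its leukocyte marker sums lay within the WT range, but 3 of the 10 leukocyte markers were higher in all 4 CAV1-/- cultures than in every WT culture. The part of leukocyte RNA in the Serpinb2 difference was not tested. Pros1, encoding protein S, the cofactor of activated protein C, was at 29.7 and 36.9 CPM in WT static and 36.3 and 45.2 CPM in WT stretched, and at 54.6 and 51.6 CPM in CAV1-/- static and 50.2 and 59.9 CPM in CAV1-/- stretched cultures. Its log2 difference was 0.67 (SE 0.18) static and 0.43 (SE 0.18) stretched, with limma adjusted p-values of 0.324 and 0.798, and here too the genotypes did not overlap. The 2 factors that tissue factor acts with, F7 and F10, were chosen after their values were seen. F10 was at 0.161 to 1.04 CPM in WT, 34.1 and 19.6 CPM in CAV1-/- animal 1 and 2.26 and 2.74 CPM in animal 2 (DESeq2 adjusted p = 0.0113 static, limma 0.649), and F7 was at 25.1 and 14.6 CPM in CAV1-/- animal 1 and at most 1.33 CPM elsewhere. Both were thus highest in the animal in which all 10 leukocyte markers and the smooth muscle and pericyte sum were highest. The part of the RNA of these cell types in the levels of F7 and F10 was not tested.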

How the data were processed

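RNAseq was done on primary MCs of 2 WT and 2 CAV1-/- mice, static or stretched for 24 h (8 libraries). The authors made poly(A) libraries without strand information, removed adapters with Cutadapt and used RSEM to estimate the reads of each gene on the transcriptome of GRCm38. The deposited signal is CPM normalized by the TMM method of edgeR, for 13687 genes. In each library the values were whole multiples of 1 constant (100% within 0.01 reads), from which reads were recovered.

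A pseudocount of 1 was added before log2, genes with at least 1 CPM in at least 2 libraries were tested (13665), and limma (version 3.58.1, R version 4.3.3) was fitted to all 8 libraries with 1 mean per group, an intensity trend and 4 residual degrees of freedom. Benjamini-Hochberg adjustment ran over all genes, with a threshold of 0.05. An exact permutation test of 2 against 2 cannot go below p = 0.333. Static and stretched cultures shared an animal by the labels, and their deviations correlated with r = 0.70 in WT and 0.85 in CAV1-/-. Alternatives were edgeR (version 4.0.16) and DESeq2 (version 1.42.0) on recovered reads, pseudocounts of 0.1 and 5, no filter, a mean of at least 5 CPM, quantile and median-of-ratios scaling, a replicate block and each culture left out. The fit without 1 animal was added after the values were seen. Lengths and positions are from GENCODE M21, which held 13597 of the gene identifiers. The 9 genes, the list of 43 genes and the marker lists were chosen with earlier results of these data known. Named besides these are genes of the list past an unadjusted p of 0.05 and the 2 genes most like each member.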

Additional observations from a re-analysis of the deposited data

How the results depend on the processing

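With each culture left out in turn, 94 of 288 single-gene differences of the 9 members turned in sign, as a group of 2 is then 1 culture, assumed to vary like the others. Among the 490 values under the other alternatives, 9 turned in sign and 477 had the same sign and call. The values that turned were near 0 (log2): Tfpi static CAV1-/- against WT by quantile scaling 0.017, median-of-ratios 0.0196, edgeR 0.057 and DESeq2 0.087, F3 stretched CAV1-/- against WT by edgeR 0.070 and DESeq2 0.0777, and the Tfpi interaction by quantile scaling -0.00910, edgeR -0.0083 and DESeq2 -0.031. For these the cause was not tested. Tfpi2 on averaged stretch was past the threshold in 4 of its 21 alternatives, its adjusted p ranging from 0.00113 to 1.00. Thbd in static cultures had an adjusted p of 0.225 to 0.999 over its alternatives and a positive difference of 0.59 to 1.10 in all of them.

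Counts of genes called depended on the model. DESeq2 called 3 for stretch in WT, 7 in CAV1-/- and 34 on average, and 309 static and 237 stretched for genotype, where limma had 10 and 8. edgeR called 2 for static and 6 for stretched genotype. With the replicate block, 1 gene was called for stretch in CAV1-/-, 201 on average, 246 for static and 110 for stretched genotype. For genotype the number joins different animals, so this block is no pairing by design (r = 0.52 static and 0.48 stretched). Members called were 1 by DESeq2 and 1 with the block for averaged stretch, in both cases Tfpi2, and the block changed no other call of a member. In the list of 43 genes the block gave Serpinb2 an adjusted p of 0.0340 for static genotype. Leaving out 1 culture gave 0 to 5 genes for static and 0 to 5 for stretched genotype. The ranges for members that turned in sign when 1 culture was left out were as follows (log2). For stretch in WT F3 -0.39 to 0.56, Plat -0.064 to 0.53, Plau -1.01 to 0.24, Plaur -0.089 to 0.72, Procr -0.17 to 1.13, Serpine2 -0.70 to 1.16, Tfpi -0.12 to 0.32. For stretch in CAV1-/- F3 -1.27 to 0.86, Plat -0.17 to 1.14, Plaur -0.57 to 0.99, Procr -0.57 to 0.90, Serpine2 -0.79 to 1.20, Tfpi -0.35 to 0.60. For stretch averaged F3 -0.60 to 0.47, Plaur -0.13 to 0.65, Procr -0.046 to 0.69, Serpine2 -0.28 to 0.71, Tfpi -0.13 to 0.35. For genotype static F3 -0.85 to 1.27, Plat -0.43 to 0.88, Plau -0.32 to 0.44, Plaur -0.39 to 1.17, Procr -0.26 to 1.21, Serpine2 -0.64 to 1.29, Tfpi -0.48 to 0.47, Tfpi2 -0.15 to 0.92. For genotype stretched F3 -0.92 to 0.75, Plat -0.14 to 1.10, Plau -0.72 to 0.53, Plaur -0.16 to 0.72, Procr -0.50 to 0.81, Serpine2 -0.70 to 1.29, Tfpi -0.34 to 0.38. For the interaction F3 -1.36 to 0.77, Plat -0.40 to 0.91, Plau -0.78 to 0.47, Plaur -0.89 to 0.67, Procr -1.05 to 0.42, Serpine2 -1.02 to 0.97, Tfpi -0.45 to 0.50, Tfpi2 -0.38 to 0.69, Thbd -0.72 to 0.11.

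The pseudocounts, filters and scalings moved the median of all genes by at most 0.032 (log2). Precision is limited by 2 animals per genotype more than by depth: counting error was at most 11.9% of the value for the member with the fewest reads.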
